A study of Homo sapiens with 17 samples.

Results

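Heme is made in a chain of enzymes that begins and ends in the mitochondrion. The 9 genes described here are 8 enzymes of that chain, ALAS1, ALAS2, ALAD, UROS, UROD, CPOX, PPOX and FECH, and TMEM14C, a mitochondrial inner membrane protein needed to bring protoporphyrinogen to the last steps. They were chosen by name as genes of the pathway, all 9 were found among 57638 annotated genes, and all 9 had reads in each of 17 libraries. For each gene the deposited estimated reads of its transcripts were summed and scaled to the reads in genes of that library, as CPM, the usual count scale that sets every library to the same total.

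The cells were K562, a human chronic myeloid leukaemia line grown in suspension. Every library came from cells electroporated with CRISPR plasmids, then given an antisense oligonucleotide and collected on day 6, so no library is of untouched cells. The plasmid labels were Neg, GFP and RFP, which name no human gene to activate and are called the reference here, E7, TTR, TRPC5OS, ADORA2A, UBE2V1 and COL6A6, and GOLGA8N and LAPTM4B with libraries titled 1 and 2. Another 4 labels carry a number before the gene: 20-ARSF, 21-CTPS2, 22-LAPTM4B and 23-GOLGA8N. The labels do not say what the numbers, Neg or E7 stand for, name neither guides nor the oligonucleotide, and leave unsaid whether each library had its own culture. The p-values therefore measure library-to-library spread, part of which may be technical.

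Reads in genes ran from 549962 in GFP, through 2174638 in the next shallowest library, to 4090195. The floor of 3 reads equals 5.45 CPM in GFP, the shallowest, but 0.733 CPM in the deepest library. The labelled cell type is lymphoblasts. All 9 erythroid markers checked were detected, with a summed level of 4799 to 9301 CPM, while the summed B lymphoid markers reached at most 5.62 CPM, and the T lymphoid genes CD3E and CD2 had no reads in any library although CD3D averaged 65.8 CPM.

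The first enzyme, 5-aminolevulinate (ALA) synthase, joins glycine and succinyl-CoA and is the usual control point of the pathway. It has a housekeeping form, ALAS1, which heme represses in most tissues, and an erythroid form, ALAS2, whose gene is driven by the transcription factor GATA1 and whose messenger RNA is translated according to iron supply. ALAD joins ALA molecules into porphobilinogen in the cytosol. UROS and UROD form and decarboxylate uroporphyrinogen, CPOX and PPOX oxidise the product in the mitochondrion, and FECH, ferrochelatase, inserts iron. K562 cells make embryonic and fetal haemoglobin, and therefore need heme.

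The sequences before the starts of 3 of these genes are shown because ALAS2 and CPOX had the lowest p-values of the 9 between label classes, ALAS1 is the housekeeping counterpart of ALAS2, and the 3 differ in a motif of the erythroid factor GATA1. RefSeq promoters (GRCh38.p14) were matched for 8 of the 9 members; UROS was not matched. The motif was searched on both strands as NGATAN with A or T at the first N and A or G at the second, in the 250 bases before each start, and 22.3% of all 35116 promoter windows held at least 1 match over those bases. The stretches below, 5′ to 3′ on the gene's strand, end before the first annotated exon of the gene. Capitals mark the GATA motif and, where present, CACCC on either strand.
ALAS2 (chrX:55031065-55031227, minus strand): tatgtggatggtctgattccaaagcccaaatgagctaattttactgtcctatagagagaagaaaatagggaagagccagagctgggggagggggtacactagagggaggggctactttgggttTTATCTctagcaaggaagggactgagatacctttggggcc
CPOX (chr3:98593724-98593861, minus strand): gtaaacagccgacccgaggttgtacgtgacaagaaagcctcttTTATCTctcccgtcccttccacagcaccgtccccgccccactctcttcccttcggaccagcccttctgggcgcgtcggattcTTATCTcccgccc
ALAS1 (chr3:52197833-52198082, plus strand): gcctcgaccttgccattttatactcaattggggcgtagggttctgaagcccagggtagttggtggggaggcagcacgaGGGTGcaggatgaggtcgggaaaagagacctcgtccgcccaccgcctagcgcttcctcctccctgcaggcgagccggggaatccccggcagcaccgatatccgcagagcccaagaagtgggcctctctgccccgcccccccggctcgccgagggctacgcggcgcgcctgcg
The ALAS2 window held 1 GATA match, 127 bases before the RefSeq start, and the CPOX window 2, at 207 and 125 bases. All 3 read TTATCT on the gene's strand, the reverse complement of AGATAA. Of the other members matched, PPOX had 1 match (63 bases before the start) and ALAD 1 (68 bases), each in 1 of its 2 windows, and UROD, TMEM14C and FECH had none. Only the first 14 bases of that PPOX window and 37 of that ALAD window precede the annotated gene, so both matches lie within it. The ALAS2 and CPOX matches lie before the first annotated exon. So 4 of 8 members held the motif in at least 1 window, a count per gene, whereas the 22.3% is per window. No GATA match stood in the ALAS1 window, whose capitals mark CACCC read on the other strand, GGGTG. The ALAS2 window also held 2 CACCC matches, at 60 and 56 bases before the start, outside the printed stretch. Over the same bases 54.7% of all windows held CACCC. A match is a description of letters and shows no binding. The 3 stretches were picked partly by this motif, so the contrast among them tests nothing. Between the label classes, log2 folds ran from -0.64 (ALAD) to 0.67 (ALAS2) in members with a match. In the matched members without one they ran from -0.52 (ALAS1) to 0.31 (FECH). Whether the motif goes with the folds was not tested.

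UROD was the most abundant member in CPM. UROD (ENSG00000126088, GRCh38 chromosome 1, 45012147 to 45015575, plus strand) was lowest at 238 CPM in TTR, had a median of 350.5 CPM and was highest at 397 CPM in E7, a mean of 336 ± 47.8 (SD, n = 17). It was above ALAS2 in all 17 libraries and made up 55.7% ± 4.7 (SD, n = 17) of the summed CPM of the 9 genes. Its coefficient of variation, 14.2%, was the lowest of the 9 and near the median of 14.6% over the 151 genes whose mean CPM lay from 20% below to 25% above its own. Against genes of like mean, ALAD, FECH and TMEM14C were the steadier members, with a lower coefficient in 10.4%, 14.9% and 16.7% of such genes, beside 47.7% for UROD.

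ALAS2 (ENSG00000158578, chromosome X, 55009055 to 55031064, minus strand) came next, at 113 ± 40.5 CPM (SD, n = 17). Its lowest values were 55.6 CPM in TRPC5OS and 59.0 CPM in TTR. Its median was 108 CPM, and its highest values were 191 CPM in 20-ARSF and 192 CPM in 21-CTPS2, followed by GFP at 167 CPM. The coefficient of variation, 35.9%, was above that of 96.7% of the 480 genes of like mean, taken in the same way, whose median was 19.2%. So ALAS2 spread over a range of 3.45-fold in libraries where most genes of its abundance stayed closer together. In such bulk RNA, fewer cells expressing a gene and less of its RNA per cell cannot be told apart.

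TMEM14C (ENSG00000111843, chromosome 6, 10722915 to 10731129, plus strand) averaged 54.7 ± 10.7 CPM (SD, n = 17), from 33.3 CPM in 23-GOLGA8N through a median of 58.2 to 77.7 CPM in TRPC5OS. ALAS2 was above it in 15 of 17 libraries, and TMEM14C was above UROS in 16. UROD, ALAS2 and TMEM14C together held 78.7% to 87.5% of the summed CPM.

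**Figure D1:**
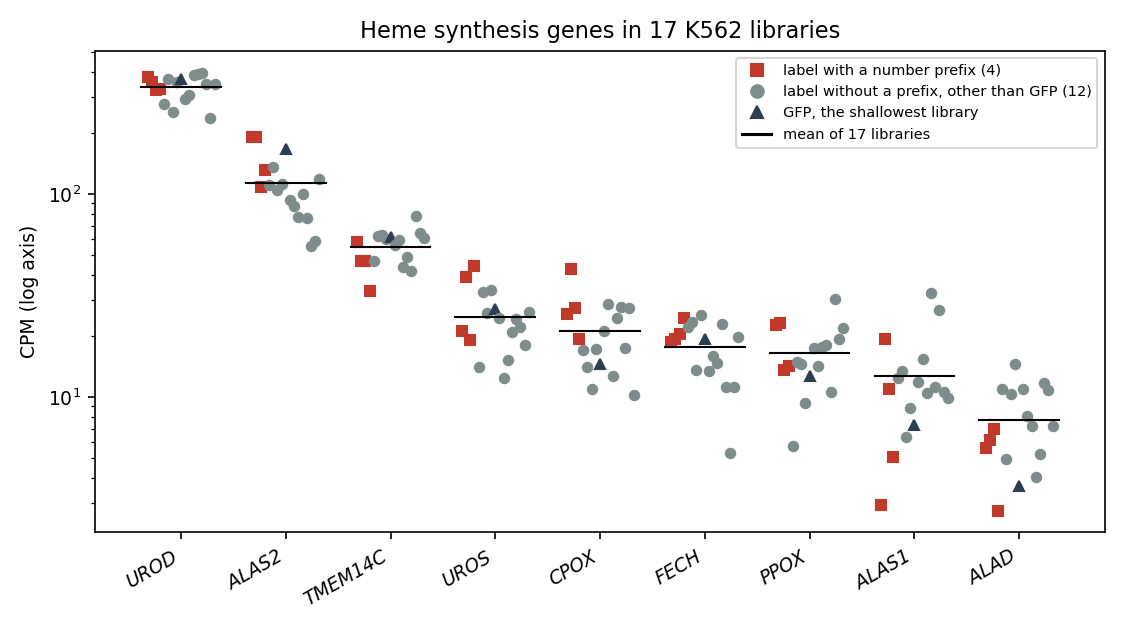
Each point is 1 library, the vertical axis is CPM on a log scale, squares are the 4 libraries with a number prefix, circles the other unprefixed libraries and the triangle GFP; lines are means. UROD lies between 238 and 397 CPM, while ALAS1 runs from 2.93 to 32.5 CPM.

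The other 6 members averaged 24.7 CPM or less, and their order was less sure. UROS (ENSG00000188690, chromosome 10, 125784980 to 125823285, minus strand) averaged 24.7 ± 8.68 CPM (SD, n = 17), with 12.4 CPM in RFP and 44.1 CPM in 23-GOLGA8N at the ends and a median of 24.2. CPOX (ENSG00000080819, chromosome 3, 98579446 to 98593723, minus strand) averaged 21.1 ± 8.37 CPM, from 10.2 CPM in UBE2V1 through a median of 19.3 to 42.8 CPM in 21-CTPS2. FECH (ENSG00000066926, chromosome 18, 57548283 to 57586772, minus strand) averaged 17.7 ± 5.5 CPM, from 5.3 CPM in TRPC5OS through 19.3 to 25.4 CPM in LAPTM4B 2. These neighbours did not differ beyond their spread: UROS was above CPOX in 9 of 17 libraries, CPOX above FECH in 9 and FECH above PPOX in 9. PPOX (ENSG00000143224, chromosome 1, 161166410 to 161178013, plus strand) averaged 16.5 ± 5.92 CPM, from 5.75 CPM in GOLGA8N 1 through 14.9 to 30.4 CPM in TRPC5OS.

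The lowest pair was ALAS1 and ALAD. ALAS1 (ENSG00000023330, chromosome 3, 52198086 to 52214327, plus strand) averaged 12.7 ± 7.54 CPM (SD, n = 17), and ALAD (ENSG00000148218, chromosome 9, 113386317 to 113401333, minus strand) 7.73 ± 3.34. ALAD went from 2.76 CPM in 23-GOLGA8N through a median of 7.21 to 14.6 CPM in LAPTM4B 2, and its lowest count was 2 reads, in GFP. ALAD's coefficient of variation of 43.2% lay below the median of 58.4% for the 1296 genes of like mean, so its spread was not wide for so few reads. PPOX was above ALAS1, and ALAS1 above ALAD, in 13 of 17 libraries each.

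These tags come from the ends of transcripts, so CPM does not grow with transcript length, whereas the deposited TPM (which also divides by the effective length of each transcript) does depend on which transcript received the reads. By mean TPM, UROD at 151 ± 22.5, ALAS2 at 29.8 ± 13.7 and TMEM14C at 25.7 ± 5.57 (SD, n = 17) kept the first 3 places. PPOX moved up to the fourth, at 17.5 ± 6.2 TPM, with 79.6% of its reads assigned to PPOX-204, a transcript of 473 bases. FECH moved to the last place, at 0.8 ± 0.253 TPM, with 99.8% of its reads on FECH-201, of 7677 bases. The order of the lower members is therefore a matter of the unit.

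The reads of a member were mostly assigned to 1 annotated transcript, but not always the one that codes for the enzyme. For UROD, 97% of reads fell on UROD-212, annotated as a processed transcript, which ends at 45015575, the last base of the gene. TMEM14C-203, also a processed transcript, took 98.5% of TMEM14C reads, UROS-209, again a processed transcript, 74.1% of UROS reads, and the coding CPOX-205 all CPOX reads. Coding UROD-201, UROD-221 and UROD-222 end at the same base as UROD-212, and coding TMEM14C-201 ends at 10731129, as TMEM14C-203 does. Coding UROS-204 ends at 125788578, beside 125788577 for UROS-209. The assignment of such end tags therefore does not show that the RNA of these 3 genes is mostly noncoding. ALAS2 was divided: ALAS2-203 held 62.9% of the pooled reads, ALAS2-208 28.2% and ALAS2-210 8.16%. Between libraries the ALAS2-203 share ran from 0.00451% to 93.1%. ALAS2-203 and ALAS2-210 share the 3′ end at 55009055 and ALAS2-208 ends at 55009113, so tags near the end cannot be told apart reliably, and only gene sums are compared here. PPOX overlaps B4GALT3 on the opposite strand over 6659 bases, and no source used here states how strand was treated. B4GALT3 averaged 76.8 CPM, so PPOX values are uncertain. ALAS2 overlaps APEX2 on the opposite strand by 3 bases.

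The housekeeping and erythroid ALA synthases were present together in every library, with ALAS2 the higher in all 17. ALAS2 supplied 67.4% of their joint CPM in TRPC5OS, a median of 90.8% and 98.5% in 20-ARSF. The ratio of ALAS2 to ALAS1 went from 2.06 in TRPC5OS to 65.2 in 20-ARSF, with a median of 9.82. ALAS1 was highest in COL6A6, at 32.5 CPM (81 reads; 95% Poisson interval 25.8 to 40.4, counting error only), and in TRPC5OS, at 27.0 CPM. It was lowest in 20-ARSF, at 2.93 CPM (12 reads; 95% Poisson interval 1.52 to 5.12). 20-ARSF thus had the lowest ALAS1 beside nearly the highest ALAS2, whereas 21-CTPS2 had 19.2 CPM of ALAS1 with as much ALAS2. These are single libraries with no replicate check.

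**Figure D2:**
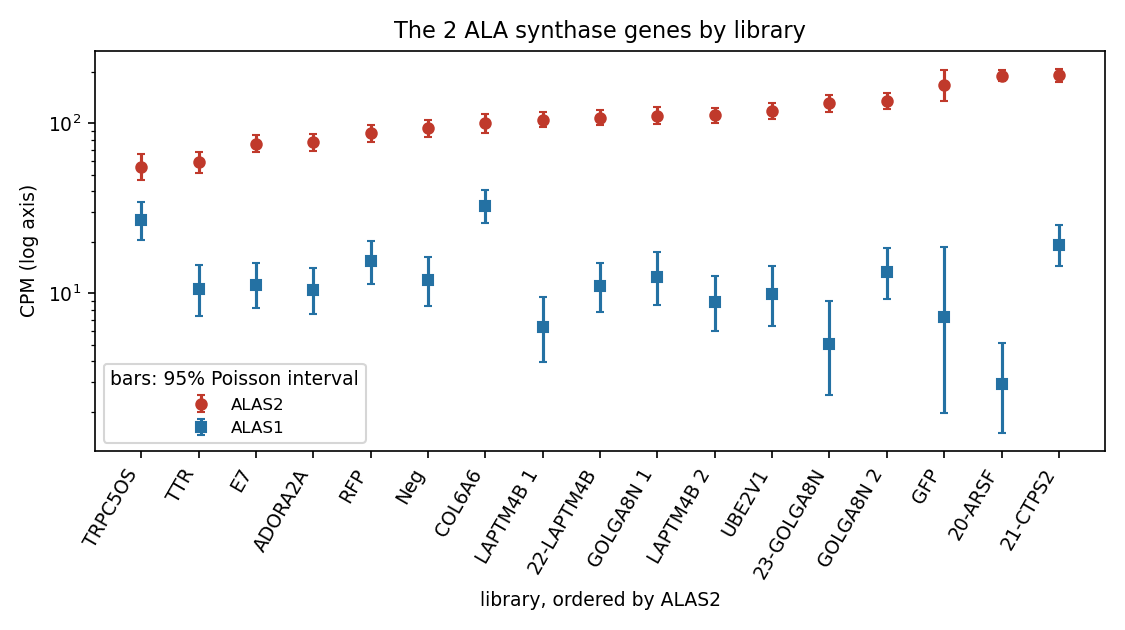
CPM of ALAS2 (circles) and ALAS1 (squares) on a log axis in 17 libraries ordered by ALAS2, with 95% Poisson intervals of the read count. ALAS2 lies above ALAS1 everywhere, closest in TRPC5OS at 55.6 against 27.0 CPM and farthest in 20-ARSF at 191 against 2.93 CPM.

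No pair of the better covered members was called as moving together across libraries. Among the 5 members averaging at least 20 CPM, Pearson's r on log2(CPM + 1) was computed for 10 pairs over 17 libraries, and 5 pairs were positive. The highest was ALAS2 with UROS, at r = 0.489 (permutation p = 0.0463, adjusted over 10 pairs 0.463) and Spearman's rho = 0.596 (permutation p = 0.0129, adjusted 0.129), all two-sided. Without TTR and TRPC5OS, the libraries farthest from the ALAS2 median, r was 0.51. The lowest was TMEM14C with CPOX, at r = -0.26 and rho = -0.29 (permutation p = 0.32 and 0.265). With the 2 libraries farthest from the median of the first gene left out of each pair, 8 of the 10 were positive, so the signs of the weaker pairs rest on those libraries. No pair passed after adjustment, and a shared library total enters every CPM.

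TRPC5OS illustrates members parting in 1 library. It had the lowest ALAS2, at 55.6 CPM, and the lowest FECH, at 5.3 CPM (12.2 estimated reads, 95% Poisson interval 2.755 to 9.22). The same library had the highest PPOX, at 30.4 CPM, and the highest TMEM14C, at 77.7 CPM, and the second highest ALAS1. 23-GOLGA8N had the highest UROS, at 44.1 CPM, beside the lowest TMEM14C, at 33.3 CPM, and the lowest ALAD. That ALAD value rests on 6 reads, with a 95% Poisson interval of 1.01 to 6.01 CPM. The range holds the next lowest ALAD, 3.64 CPM in GFP on 2 reads. Both TRPC5OS and 23-GOLGA8N are named here for their extremes, and each is a single library. The summed CPM of the 9 genes, at 605 ± 77.2 (SD, n = 17), ran from 459 in TTR to 744 in 21-CTPS2.

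**Figure D3:**
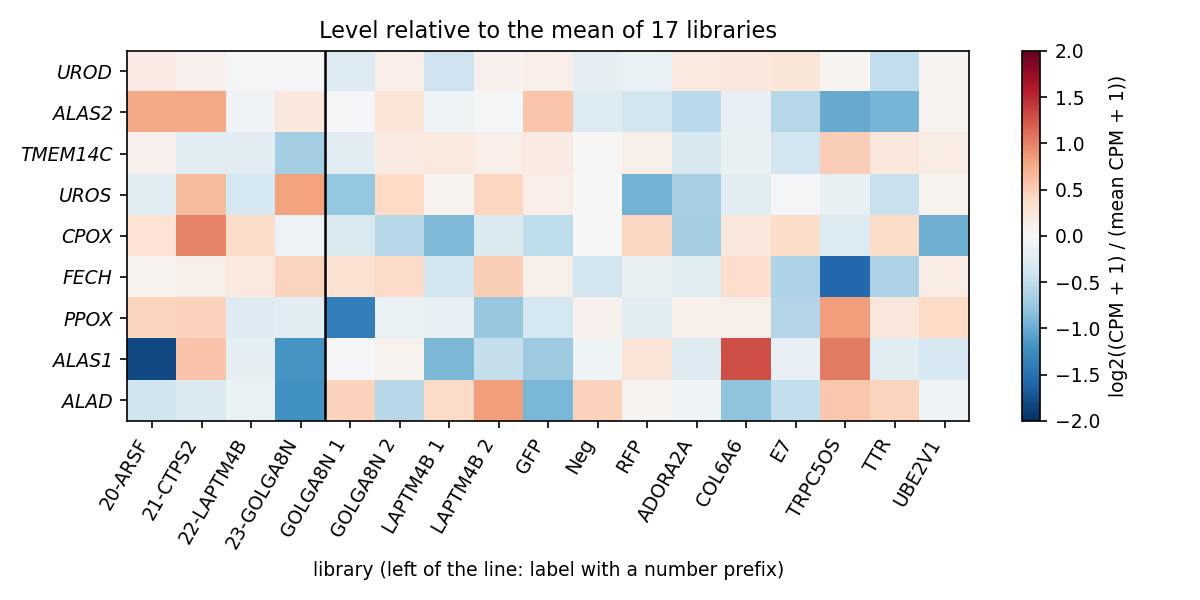
Each cell is log2((CPM + 1) / (mean CPM + 1)) of 1 gene in 1 library, red above and blue below the mean of 17 libraries; the 4 libraries left of the line carry a number prefix. No library is red or blue down the whole column, and the deepest blue is ALAS1 in 20-ARSF (2.93 CPM), the deepest red ALAS1 in COL6A6 (32.5 CPM).

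For the 3 members averaging at least 20 CPM that spread most on the log2 scale, the genes of most similar pattern were sought among 5009 genes at 20 CPM or more over 17 libraries. Nearest to ALAS2 were HEMGN, hemogen, a nuclear protein of blood-forming cells, at r = 0.845 (rho = 0.777), then KAT2A, a histone acetyltransferase, at 0.76 and GGNBP2 at 0.758. Nearest to CPOX were UBE2B, a ubiquitin-conjugating enzyme, at r = 0.826 (rho = 0.826), AQP10, an aquaglyceroporin, at 0.804 and TBL1XR1 at 0.791. UROS had lower likeness, with SERPINB6 at 0.713, EXOSC10 at 0.695 and TPM4 at 0.684. Without GFP the leading values were 0.844 for HEMGN, 0.86 for UBE2B and 0.711 for SERPINB6. These are the highest of 5009 genes and are given as a description.

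The 4 libraries with a number before the gene name were compared with the 13 others to see whether the members followed that label. Only GOLGA8N and LAPTM4B occur both with and without a number, so for the other labels number and plasmid target cannot be told apart. edgeR's quasi-likelihood test called 35 of 12319 genes, 0.284%, with 29 of them higher in the prefixed libraries. None of the 9 members was called, all 9 being tested, and 2 had an unadjusted p under 0.05, against 9.36% of all genes. By log2 fold 6 members were above 0 and 3 below, with a median of 0.21, beside -0.02 for all genes tested and 47.8% of them above 0.

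ALAS2 came nearest. Its prefixed values were 191 CPM in 20-ARSF, 192 in 21-CTPS2, 108 in 22-LAPTM4B and 131 in 23-GOLGA8N, and the unprefixed values ran from 55.6 through a median of 100.4 to 167 CPM. The groups overlapped: 20-ARSF and 21-CTPS2 stood above every unprefixed library, while 22-LAPTM4B and 23-GOLGA8N lay among them. The means were 156 ± 42.7 (SD, n = 4) and 99.9 ± 30.7 (SD, n = 13), a log2 fold of 0.67 ± 0.191 (SE; edgeR adjusted p = 0.17), the 102nd lowest p of all genes. With no filter on low counts ALAS2 passed (log2 0.68, edgeR adjusted p = 0.00717). That fit called 557 of 26798 genes, against 35 of 12319 with the filter. Within the GOLGA8N and LAPTM4B labels, with the label as a term, it was 0.06 ± 0.186 (edgeR adjusted p = 0.966). That fit sets 22-LAPTM4B and 23-GOLGA8N against the 4 unprefixed libraries of the same labels, at 105 to 135 CPM, and so leaves out TRPC5OS and TTR at the low end as well as 20-ARSF and 21-CTPS2 at the high end.

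CPOX, coproporphyrinogen oxidase, was at 25.7, 42.8, 27.5 and 19.3 CPM in 20-ARSF, 21-CTPS2, 22-LAPTM4B and 23-GOLGA8N, and from 10.2 through a median of 17.2 to 28.6 CPM in the unprefixed libraries. Only 21-CTPS2 stood above the unprefixed range. Its log2 fold was 0.63 ± 0.276 (SE, 4 against 13 libraries; edgeR adjusted p = 0.456), and 0.40 ± 0.316 without 21-CTPS2 (edgeR adjusted p = 0.88).

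The remaining members lay further from the threshold in this comparison. UROS was at log2 0.44 ± 0.269, FECH at 0.31 ± 0.31, PPOX at 0.21 ± 0.326 and UROD at 0.07 ± 0.129 (SE). Below 0 were TMEM14C at -0.28 ± 0.182, ALAS1 at -0.52 ± 0.437 and ALAD at -0.64 ± 0.465 (SE). ALAS1 had 2.93, 19.2, 10.99 and 5.06 CPM in 20-ARSF, 21-CTPS2, 22-LAPTM4B and 23-GOLGA8N, of which 20-ARSF and 23-GOLGA8N lay below the unprefixed range of 6.33 to 32.5. The edgeR adjusted p of these 7 was 0.671 or higher. UROD had the smallest SE of the 9.

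Genes around the pathway were taken from lists of heme supply and transport, heme breakdown and binding, iron-sulfur cluster assembly, erythroid factors and globins. In the prefixed comparison 1 of 17 tested supply and transport genes rose, SLC25A37, and 1 of 8 globins, HBE1, beside 0.235% of all genes called higher. SLC25A37 is mitoferrin 1, the carrier that brings iron into mitochondria of erythroid cells, where FECH uses it. It was at 307, 313, 269 and 320.5 CPM in 20-ARSF, 21-CTPS2, 22-LAPTM4B and 23-GOLGA8N. In the unprefixed libraries SLC25A37 ran from 118 through a median of 165 to 234 CPM, and all 4 prefixed values were above these, a separation seen for 0.203% of all genes. The log2 fold was 0.78 ± 0.131 (SE; edgeR adjusted p = 0.00316), and within the GOLGA8N and LAPTM4B labels 0.73 ± 0.156 (edgeR adjusted p = 0.0411).

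HBE1, embryonic epsilon globin, was at 978, 964, 714 and 598 CPM in the same order, above every unprefixed library, which ran from 278 in GFP through a median of 447 to 579 CPM. Its log2 fold was 0.83 ± 0.157 (SE; edgeR adjusted p = 0.0191). The call was lost without 20-ARSF (log2 0.73, edgeR adjusted p = 0.0654), without 21-CTPS2 (0.76, 0.11), without 22-LAPTM4B (0.87, 0.13) and within the GOLGA8N and LAPTM4B labels (0.48, 0.238). Like ALAS2, HBE1 was highest in 20-ARSF and 21-CTPS2, but unlike ALAS2 it stood above the unprefixed range in all 4 prefixed libraries, as SLC25A37 did.

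The other listed genes gave no call between the prefixes. In supply and transport 9 of 17 were above 0 with a median log2 of 0.03, SUCLG1 at 0.22 ± 0.136 and SHMT2 at 0.22 ± 0.158 following SLC25A37. Erythroid factors were below 0 for 11 of 11, with a median of -0.16, where 47.8% of all genes were above 0. GFI1B was at -0.57 ± 0.227, LDB1 at -0.59 ± 0.245 and KLF1 at -0.36 ± 0.223 (SE), with edgeR adjusted p of 0.398, 0.42 and 0.682. GATA1 averaged 141 ± 20.3 CPM (SD, n = 4) in the prefixed and 145 ± 22.7 CPM (SD, n = 13) in the unprefixed libraries. Iron-sulfur cluster genes were below 0 for 11 of 15, with BOLA3 at -0.33 and NFS1 at -0.73, and heme breakdown genes for 4 of 9, with BLVRB, biliverdin reductase B, at 0.18. Of the globins 4 of 8 were above 0, HBA2 at -0.27 and HBQ1 at 0.34 next to HBE1.

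Some markers of other cell types were lower in the prefixed libraries, none of them called. The summed fibroblast markers, 6 genes of which 2 averaged at least 1 CPM, were at 21.2 to 38.1 CPM in the prefixed and 40.0 to 64.3 CPM in the unprefixed libraries. COL1A2 carried this sum, at 28.5 ± 6.72 CPM (SD, n = 4) and 48.3 ± 8.11 (SD, n = 13), groups that overlapped (log2 -0.76, edgeR adjusted p = 0.105), while LUM had no reads and COL3A1 and DCN had reads in 1 library each. Of the T lymphoid markers, CD3G averaged 0.812 CPM in the prefixed and 5.71 CPM in the unprefixed libraries (log2 -2.63, edgeR adjusted p = 0.267), while the summed list overlapped, at 41.4 to 92.0 and 38.3 to 123 CPM. The summed erythroid markers overlapped, at 5694 to 8491 and 4799 to 9301 CPM. Whether any of these has a part in the ALAS2, SLC25A37 or HBE1 values was not tested.

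**Figure D4:**
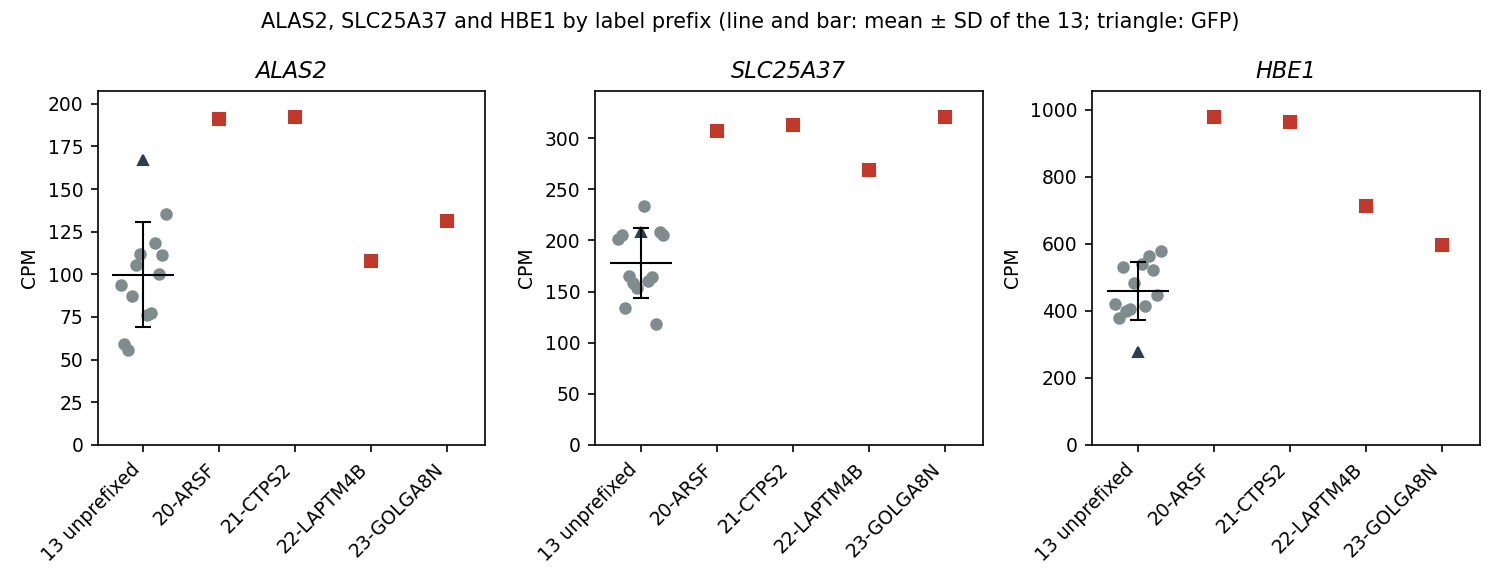
CPM of ALAS2, SLC25A37 and HBE1 in the 13 unprefixed libraries (points with mean ± SD, GFP as a triangle) and in each of the 4 prefixed libraries (squares). ALAS2 is above the unprefixed range only in 20-ARSF and 21-CTPS2, while SLC25A37 (269 CPM or more against at most 234) and HBE1 (598 or more against at most 579) are above it in all 4.

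Next, the plasmids with several libraries were compared with the reference to see whether the GOLGA8N or LAPTM4B label went with a change in the members. Levels of GOLGA8N and LAPTM4B are not given here, so the comparison is by label and not by the activation reached. Of 11916 genes edgeR called 2, 0.0168%, for GOLGA8N and 0, 0%, for LAPTM4B, where 470 had an unadjusted p under 0.05 and DESeq2 called 3. No member was called in either comparison, and none had an unadjusted p under 0.05, against 5.68% and 3.94% of all genes. The comparisons share the 3 reference libraries. A missed call does not show that a member did not differ. The fitted folds against the reference stand above the plain ratios of mean CPM: over all genes tested the median log2 ratio of mean CPM was -0.12 for GOLGA8N, -0.10 for LAPTM4B and -0.12 for the unprefixed gene plasmids, while the median fitted log2 fold was 0.01, 0.02 and 0.02.

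FECH was the only member with every GOLGA8N library above every reference library, a separation that 3.81% of all genes showed. GOLGA8N 1 had 22.1 CPM of FECH, GOLGA8N 2 had 23.3 and 23-GOLGA8N had 24.4, while Neg had 13.5, RFP 15.9 and GFP 19.3. The GFP value rests on 10.6 estimated reads (95% Poisson interval 9.51 to 34.9 CPM), a range that holds all 3 GOLGA8N values. The FECH log2 fold was 0.67 ± 0.444 (SE, 3 against 3 libraries; edgeR adjusted p = 0.944). In the LAPTM4B libraries FECH was at 13.6, 25.4 and 20.3 CPM, overlapping the reference, with a log2 fold of 0.43 ± 0.441 (edgeR adjusted p = 1).

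For ALAS2, GOLGA8N 1 had 111 CPM, GOLGA8N 2 had 135 and 23-GOLGA8N 131, beside 105 in LAPTM4B 1, 112 in LAPTM4B 2 and 108 in 22-LAPTM4B. The reference was wider, with 93.8 CPM in Neg, 87.4 in RFP and 167 in GFP. ALAS2 gave log2 0.31 ± 0.234 for GOLGA8N against the reference (SE, 3 against 3 libraries; edgeR adjusted p = 0.966). UROS spread from 14.0 to 44.1 CPM within the GOLGA8N arm alone, with a log2 fold of 0.70 ± 0.461 against the reference (edgeR adjusted p = 0.944) and 0.48 ± 0.458 for LAPTM4B.

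Set directly against LAPTM4B, the GOLGA8N libraries gave no called member, and edgeR called 1 of 11916 genes, 0.00839%. No member had an unadjusted p under 0.05, against 2.04% of all genes. The largest member fold was that of ALAD, with a log2 fold of -0.74 ± 0.741 (edgeR adjusted p = 1), on 48 reads in the GOLGA8N and 111 in the LAPTM4B libraries. ALAS2 was at 0.23 ± 0.229 and its arms overlapped, since GOLGA8N 1 at 111 CPM lay below LAPTM4B 2 at 112 CPM.

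Last, the 9 unprefixed libraries that name a human gene were set against the 3 reference libraries. edgeR called 7 of 12197 genes, 0.0574%, and no member; 7 of the 9 members were above 0, with a median log2 of 0.28 beside 0.02 for all genes, 51.6% of which were above 0. From the plain ratios of mean CPM, 6 members were above 0 with a median of 0.09, beside the median of -0.12 for all genes, and TMEM14C lay at -0.01 where its fitted fold was 0.14. UROD averaged 329.9 CPM in these libraries and 322.7 CPM in the reference, a log2 ratio of 0.03. The fitted log2 fold of UROD was 0.20 ± 0.151 (edgeR adjusted p = 0.822) and ALAS1 at 0.40 ± 0.487 (edgeR adjusted p = 0.922). No member had an unadjusted p under 0.05, against 8.13% of all genes.

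**Figure D5:**
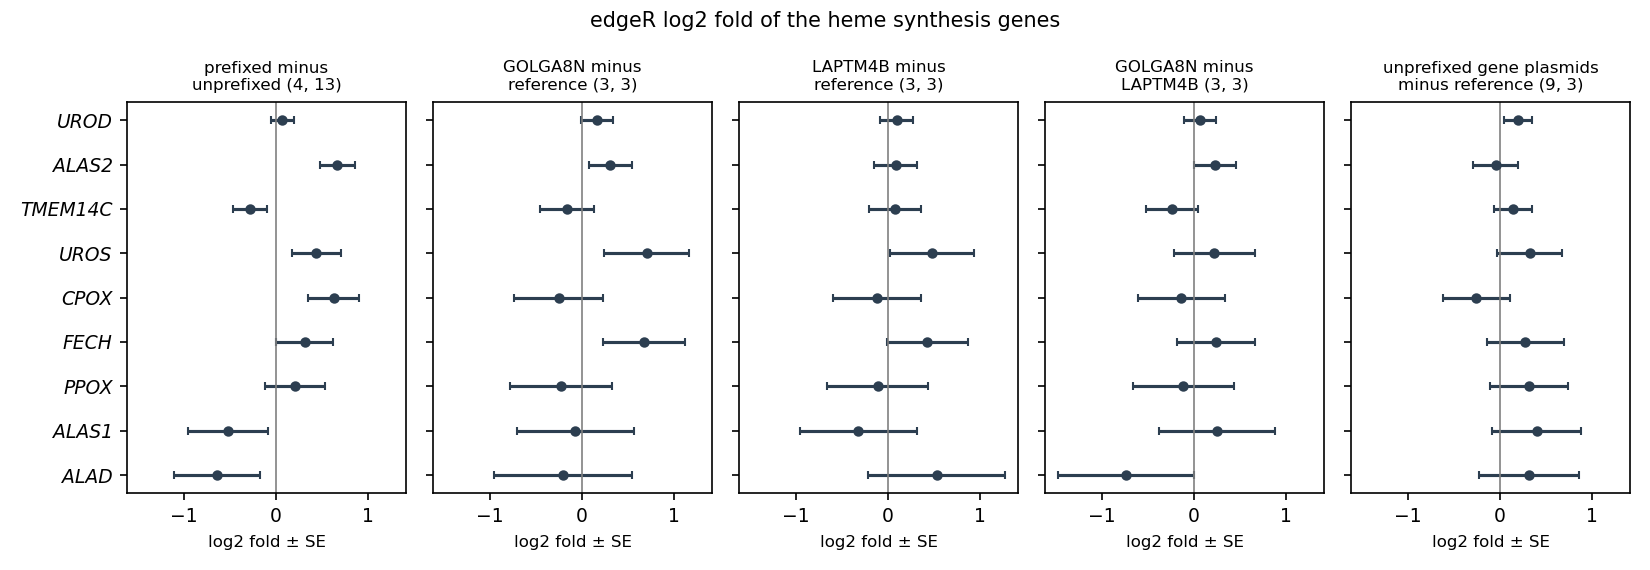
edgeR log2 fold ± SE of the 9 genes (rows, by mean CPM) in 5 comparisons (panels, with the number of libraries in each group). ALAS2 at 0.67 in the prefixed comparison is the value farthest from 0 in units of its SE, and most other bars reach or come near 0.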

How the data were processed

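Total RNA of 17 K562 libraries was read as 3′ tags primed with oligo-dT carrying 12 bp molecular identifiers, per the labels' protocols. For 228297 transcripts the authors deposited estimated counts of reads, fractional in part, and TPM, per the file headers. Tools listed by the submitters' processing notes are Salmon (0.7.2), STAR (also given as 0.7.2), UMI-tools and featureCounts, with builds GRCh38 and hg38. No source used here says whether identifiers were collapsed beforehand, so counting intervals may be too narrow.

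Gene sums of these counts used GENCODE 29 (205336 transcripts matched), the 3.32% to 3.6% of reads without a gene staying out. Sums were rounded for edgeR 4.0.16 in R 4.3.3 (TMM, filterByExpr, robust quasi-likelihood test, Benjamini-Hochberg adjustment over all genes tested, threshold 0.05); the SE is the log2 fold divided by the root of F. Alternatives were DESeq2 1.42.0, limma-voom (limma 3.58.1), other size factors, filters and sets of libraries. The fits were tested on simulated data.

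A labelled number was ignored in pooling 23-GOLGA8N with GOLGA8N and 22-LAPTM4B with LAPTM4B. E7 entered only the prefix comparison and the alternative that fits all 17 libraries with the prefix class as a term. The members and gene lists were chosen with earlier results of these data known. The genes named were the members, the called genes or else the 3 with the lowest p of each list, and the 3 genes most like each of 3 members. GATA1 is also given because its motif was searched. Permutation p-values used 100000 draws. 1 listed gene is not reported here by name.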

Additional observations from a re-analysis of the deposited data

How the results depend on the processing

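In the prefixed comparison the log2 folds of the 9 members kept their sign in all 14 alternatives each, and the count of called members, 0, moved only with no filter on low counts, to 1 (ALAS2). Leaving out each prefixed library in turn gave 0 called members each time, with ALAS2 between log2 0.55 and 0.80. The other edgeR adjusted p of ALAS2 ran from 0.0908 without GFP to 0.966 within the GOLGA8N and LAPTM4B labels, beside 0.0704 in DESeq2 and 0.0661 in limma-voom. Without TRPC5OS, and without TRPC5OS and TTR, both chosen after the data were seen, ALAS2 was at 0.62 and 0.56. The number of genes called in this comparison was 110 in DESeq2, 55 in limma-voom, 557 with no filter, 73 within the GOLGA8N and LAPTM4B labels, 23 with unmatched transcripts kept, 22 without TRPC5OS and TTR and 2 to 29 without 1 prefixed library, against 35; the cause was not tested. SLC25A37 was called in all 14 alternatives, HBE1 in 10.

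In the other 4 comparisons no member was called in any alternative. The genes called there were 12 in DESeq2, 0 in limma-voom and 42 with no filter for GOLGA8N against reference (2), 25 with no filter for LAPTM4B against reference (0), 3, 0 and 9 for GOLGA8N against LAPTM4B (1), and 78, 23 and 92 for the unprefixed gene plasmids (7, and 0 with other size factors, a stricter filter or unmatched transcripts kept). Leaving out 1 library gave 1 to 6 calls for GOLGA8N against reference (6 without 22-LAPTM4B, 5 without 23-GOLGA8N, 4 without LAPTM4B 2), 0 or 1 for LAPTM4B against reference, 1 to 3 for GOLGA8N against LAPTM4B, and 0, 1 and 2 for the unprefixed gene plasmids without each reference library; in unprefixed libraries only, the first 3 gave 7, 2 and 2. Over all 5 comparisons 15 of 45 member values changed sign somewhere, none of them above 0.26 in size. Libraries titled 1 and 2 of GOLGA8N and LAPTM4B share a number, and the labels do not say whether they shared anything else. The correlation of deviations from the label means, GOLGA8N 1 with LAPTM4B 1, was 0.14 over 10879 genes. With the replicate block 0 members were called, and ALAS2 was at 0.21 both with and without the block. ALAD was at -0.68 with the block and -0.61 without, and each fit called 2 genes. As shares of the summed members, deposited TPM in place of CPM gave 12% for ALAS2, 0.41% for ALAD, 62.1% for UROD, 1.15% for CPOX, 7.12% for PPOX and 0.33% for FECH, against 18.4%, 1.34%, 55.7%, 3.52%, 2.75% and 2.92%, since it divides by the length of the transcript assigned. No pair of members was called without GFP, with a pseudocount of 10 CPM or in the unprefixed libraries without GFP. Depth limits ALAD, ALAS1 and GFP most.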

Other observations

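Heme breakdown and binding genes were uneven in level. BLVRB, biliverdin reductase B, averaged 441 ± 46.8 CPM (SD, n = 17) and had 382 CPM or more in every library. HMOX1, the inducible heme oxygenase that opens the heme ring, averaged 0.402 CPM, with at least 1 read in 7 of 17 libraries and at most 3.98 CPM, while the constitutive HMOX2 averaged 31.5 CPM. In the unprefixed gene plasmids against the reference 7 of 9 tested genes of this list were above 0, PGRMC2 at log2 0.56 ± 0.212, HMOX2 at 0.64 ± 0.29 and BLVRB at 0.26 ± 0.125 (edgeR adjusted p = 0.464, 0.55 and 0.609), and none was called.

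Iron-sulfur cluster genes, whose product FECH carries, were above 0 for 12 of 15 in that comparison, with BOLA3 at log2 0.53 ± 0.165, ISCU, the assembly scaffold, at 0.46 ± 0.23 and IREB2 at -0.40 ± 0.24 (SE; edgeR adjusted p = 0.292, 0.625 and 0.744). Globins were above 0 for 8 of 8, with HBE1 at 0.53, HBA1 at 0.70 and HBG2 at 0.36, none called, while 51.6% of all genes were above 0. By plain ratios of mean CPM, without the fitted scaling, 6 of 9 heme breakdown, 8 of 15 iron-sulfur cluster and 7 of 8 globin genes were above 0. The 51.6% belongs to the fitted folds and is no background for these counts. By plain ratio the median log2 over all genes was -0.12, so fewer of all genes than not were above 0. These values share the reference libraries with the GOLGA8N and LAPTM4B comparisons and are not independent of them.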
